A study of Mus musculus with 4 samples.

Results

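Heat shock proteins and their J-domain partners were examined in C2C12 cells, a mouse myoblast line. The members were all genes whose symbol in the deposited files begins with Hspa, Hspb, Hspd, Hspe, Hsph or Hsp90a, or with Dnaja, Dnajb or Dnajc and a number, together with Hsf1, Hsf2 and Bag3, without entries named as pseudogenes. This name rule gave 76 of 55416 genes. No measured value entered the rule, though it was chosen with earlier results of these data known. They were 11 HSP70 genes, 3 HSP110 genes, 2 HSP90 genes, 2 chaperonin genes, 7 small heat shock protein genes, 4 DNAJA, 13 DNAJB and 28 DNAJC genes, and 6 regulators and partners. The cells had received DNA encoding either wild-type lamin A or K97E lamin A, the latter called a dilated cardiomyopathy mutant in the design text, and RNA was taken 24 h after transfection of 3 µg of DNA by lipofection. There were 2 libraries of each kind, and in pairs of values set against each other the wild-type libraries come first, replicate 1 before replicate 2. Cells of both groups went through the same transfection, their own Lmna gene was intact as far as the labels state, and untransfected cells were not analysed here. The labels do not say what share of cells took up the DNA, and the K97E titles spell the line C1C12 where the other fields read C2C12.

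Molecular chaperones bind unfolded stretches of other proteins and prevent them from aggregating. HSP70 proteins hold and release such stretches in cycles driven by ATP. J-domain proteins, named Dnaj, deliver the substrates and stimulate the ATPase, and nucleotide-exchange factors such as HSP110 and BAG proteins reset it. HSP90 acts later, on nearly folded kinases and steroid receptors, while the HSP60 and HSP10 chaperonin folds proteins within mitochondria. Small heat shock proteins hold damaged proteins without using ATP and are abundant in muscle, where BAG3 and HSPB8 help to clear damaged filament proteins. Heat shock factor 1, encoded by Hsf1, switches on the stress-inducible members through heat shock elements, which are inverted repeats of the unit GAA in the promoters. Misfolded protein in the cytosol is the classical trigger, so these genes serve as a readout of protein-folding stress.

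Promoter sequences are shown for 5 members, to mark where exact letters of the heat shock element lie in them. Of the 61 members with a promoter entry, 17 carry such a match. The bases are the 200 before the start site in RefSeq on GRCm38.p6, printed 5′ to 3′ on the gene's strand, with exact matches in capitals. Looser forms of the element were not searched, so lower-case bases and members without a match are not shown to lack one. Searched on both strands were the head-to-head pair of units GAANNTTC, the tail-to-tail pair TTCNNGAA, and 3 units in a row, which are either pair followed by NNGAA or NNTTC in the alternating order and so contain both pairs. Hspa1a and Hspa1b, the stress-inducible HSP70 pair, lie at chr17:34972157-34972356 and chr17:34959239-34959438 on the minus strand. Hspb1 lies at chr5:135887719-135887918, Hspe1 at chr1:55087948-55088147 and Dnajb6 at chr5:29735698-29735897, all on the plus strand.
Hspa1a: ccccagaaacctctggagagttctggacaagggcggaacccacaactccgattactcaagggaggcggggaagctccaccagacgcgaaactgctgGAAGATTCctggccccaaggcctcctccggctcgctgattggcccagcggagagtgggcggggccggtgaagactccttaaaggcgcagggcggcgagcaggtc
Hspa1b: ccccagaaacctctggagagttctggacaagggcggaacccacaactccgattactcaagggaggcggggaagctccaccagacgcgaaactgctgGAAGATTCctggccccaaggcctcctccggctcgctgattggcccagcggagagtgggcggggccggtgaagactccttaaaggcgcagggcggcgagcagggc
Hspb1: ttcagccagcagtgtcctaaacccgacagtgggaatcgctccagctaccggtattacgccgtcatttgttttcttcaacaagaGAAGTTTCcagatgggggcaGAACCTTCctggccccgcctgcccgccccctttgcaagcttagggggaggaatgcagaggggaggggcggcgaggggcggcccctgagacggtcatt
Hspe1: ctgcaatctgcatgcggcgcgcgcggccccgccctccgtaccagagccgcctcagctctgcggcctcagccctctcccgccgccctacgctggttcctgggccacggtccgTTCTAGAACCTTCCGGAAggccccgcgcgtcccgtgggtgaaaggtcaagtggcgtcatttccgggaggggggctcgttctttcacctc
Dnajb6: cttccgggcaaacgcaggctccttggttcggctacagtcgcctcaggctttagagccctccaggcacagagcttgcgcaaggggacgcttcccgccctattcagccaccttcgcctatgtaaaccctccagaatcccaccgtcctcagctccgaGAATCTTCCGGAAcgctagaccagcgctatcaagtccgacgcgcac

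The Hspa1a and Hspa1b stretches were equal at 199 of 200 bases, and both carried a head-to-head pair that ended 97 bases before the start. Hspb1 held 2 head-to-head pairs. Hspe1 and Hspd1 are transcribed in opposite directions from a shared promoter. Their 300-base windows, from 250 bases before to 50 after the start, shared 285 bases and with them a run of units that matched the 3-unit form at 2 overlapping places. A 3-unit match was found in 4 of the 61 members with a promoter entry (Hspd1, Hspe1, Hsph1 and Dnajb6), which is 6.56% of them, against 0.662% of the 27025 genes in the same table. A head-to-head pair was found in 15 of the 61, or 24.6%, against 9.04% of all genes, and a tail-to-tail pair in 6, or 9.84%, against 9.60%. The 15 members without an entry were not searched, among them Hspa9, Hsf1 and the core genes Hsp90aa1, Hsp90ab1 and Hspa8 described below. These matches describe exact letters in the windows and were not measured as binding.

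The libraries held 89600000 to 115600000 estimated reads (rounded) of 100 bases on transcripts, and 14463 to 14684 genes reached 1 TPM (StringTie's measure of level, corrected for transcript length and library size). Of 9 myoblast markers in the files, 9 reached 1 TPM in every library, led by vimentin and desmin. Of 9 markers of differentiated fibres 0 did. Myog stood at 0 to 0.10 TPM, and Mymk, the highest of these markers, at 0.926 to 3.83 TPM. The summed level of 10 leukocyte markers ran from 48.6 to 66.6 TPM and came mostly from Cd14. Cd68 stood at 3.17 to 5.48 TPM, Cd163 at 1.14 to 2.82 TPM and Lyz2 at 0.819 to 1.55 TPM, while Cd3e and Adgre1 were at 0. Sums for 6 endothelial and 7 epithelial markers were 21.2 to 25.0 TPM and 0.617 to 0.948 TPM. The endothelial sum came mostly from Cdh5, at 17.1 to 20.3 TPM, and Flt1, at 3.13 to 4.13 TPM. The ribosomal RNA gene Rn18s, a sign of how completely ribosomal RNA was removed, stood at 23452 and 44379 TPM with wild-type lamin A and at 18625 and 52772 TPM with K97E. Its part in any difference between libraries was not tested.

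No heat shock protein or J-domain gene was called different between K97E and wild-type lamin A. Of the 76 members 68 reached a mean of 0.5 TPM and were tested in a limma fit across 16304 genes, and 0 were called at an adjusted p under 0.05. Over all tested genes 0.00613% were called, which is 1 gene and no member. The adjusted limma p of the members ran from 0.965 to 0.995. At an unadjusted p under 0.05 there was 1 member, Hspb11, against 3.68% of all tested genes. Log2 differences (K97E minus wild type) ran from -0.30 for Hspb11 to 0.41 for Hspb9. Their median was 0.02, with 36 members above 0 and 32 below (45 above 0 with TPM as deposited), and the median of all tested genes was -0.0017. The median of the members was -0.02 without the weakly expressed members under a mean of 5 TPM, between -0.02 and -0.0029 with a library left out, and 0.07 with TPM taken as deposited. The sign of 6 named members, Hspa8, Hspa9, Hspa4l, Hsp90aa1, Hsp90ab1 and Dnaja3, turned under some other scaling of the libraries, so no direction is read from them. The labels call the libraries biological replicates without saying that they were separate cultures, and the p-values cover the spread between these libraries.

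The intervals also show how large a difference in the bulk level could have been missed, gene by gene and without adjustment for many genes. For 53 of the 68 tested members the 95% limma interval of the difference lay within 1.5-fold in either direction, and so it did for 67.0% of all tested genes. The median level was 43.6 TPM for members and 15.0 TPM for all tested genes. The 15 members with wider intervals included Hspa1a, Hspa1b, Hspb1, Hspb2, Hspb6, Dnajc2, Dnajc8 and Dnajc21, for which a 1.5-fold difference was therefore not bounded. Groups did not overlap for 20 members, 9 higher and 11 lower with K97E, against 33.1% of all tested genes. In bulk RNA, a change in every cell and a change in the share of transfected cells cannot be told apart. A change within transfected cells only was not bounded, since their share is not given.

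**Figure D1:**
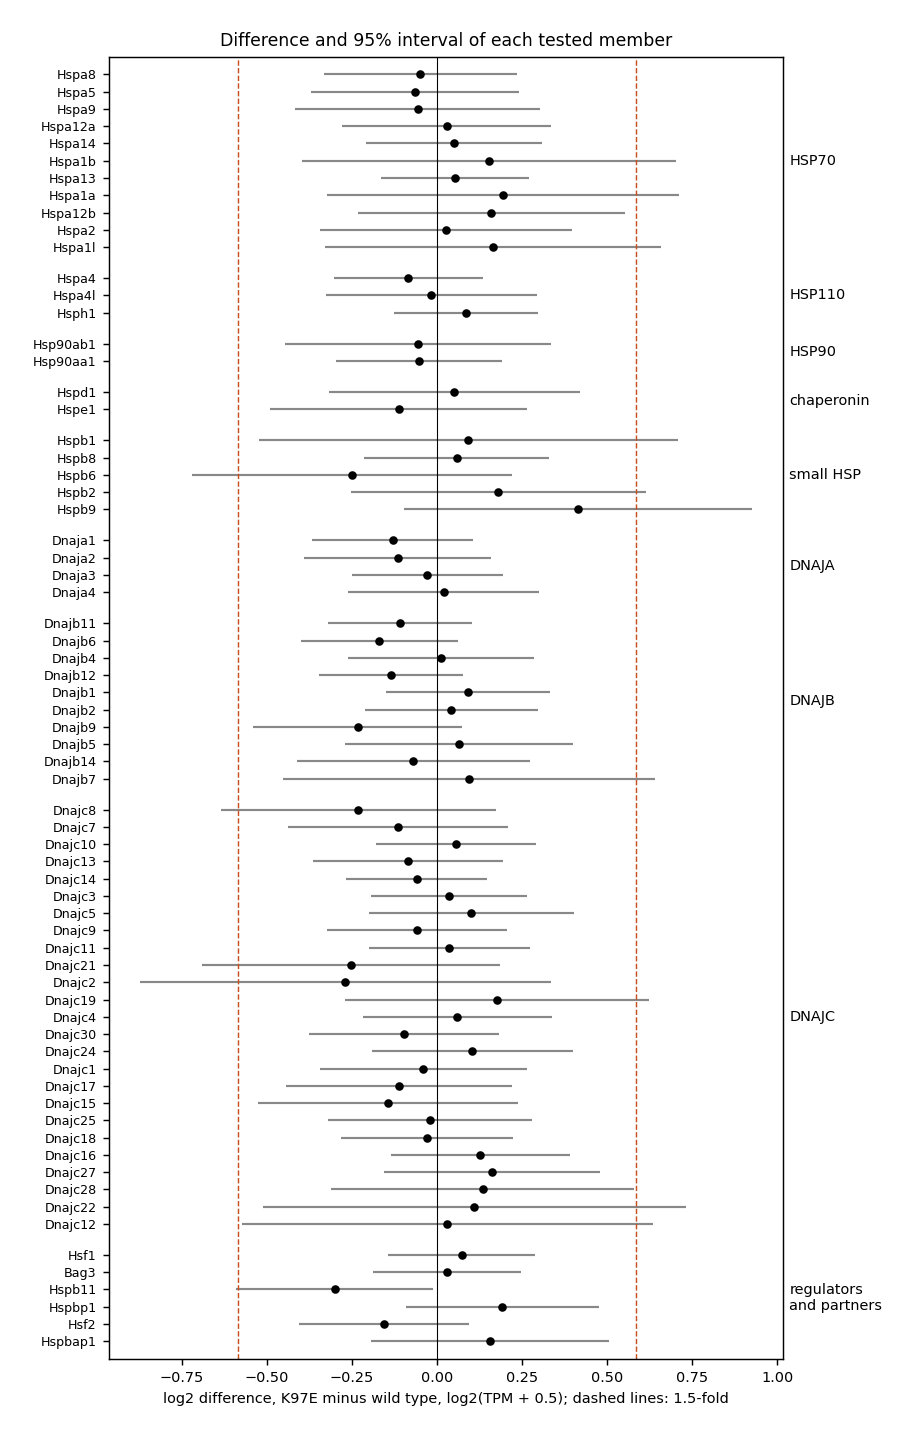
Log2 difference (K97E minus wild type, on the scale of log2(TPM + 0.5)) of each of the 68 tested members, with its 95% interval from limma as a bar, by family and ordered by level. All intervals but that of Hspb11 cross 0, and 53 lie between the dashed lines at 1.5-fold.

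The constitutive HSP70 genes were among the most abundant members, and none of them was called. Hspa8 (ENSMUSG00000015656; GRCm39 chromosome 9, 40712280 to 40721383, plus strand), the housekeeping cytosolic HSP70, stood at 1090.1 and 1061 TPM with wild-type lamin A and at 1127 and 1038 TPM with K97E. Both K97E values of Hspa8 bracket the wild-type ones before scaling. After division by the library size factors, 0.98 for both wild-type libraries and 1.04 and 1.00 for K97E, they lay just below, and the log2 difference was -0.05 (95% interval -0.33 to 0.23). Hspa5, the HSP70 of the endoplasmic reticulum also called BiP, stood at 1029 and 909.5 against 996 and 930.1 TPM. Hspa9, or mortalin, which pulls proteins into the mitochondrial matrix, stood at 594 and 491 against 512 and 571 TPM. In both genes the wild-type libraries lay farther apart than the group means. Hspa13, Hspa14, Hspa12a, Hspa12b and Hspa2 differed by 0.03 to 0.16 on the log2 scale, and Hspa14 shares exons with the predicted gene Gm45902.

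Among the HSP110 genes, which act as exchange factors for HSP70, Hsph1 (ENSMUSG00000029657; GRCm39 chromosome 5, 149537752 to 149559841, minus strand) stood at 47.7 and 50.1 TPM with wild-type lamin A and at 55.3 and 52.8 TPM with K97E. All K97E values of Hsph1 were above the wild-type ones, and the log2 difference was 0.09 (95% interval -0.13 to 0.30). Hspa4 went the other way by value, from 156 ± 7.12 TPM to 153 ± 3.20 TPM (SD, n = 2 each), a log2 difference of -0.08 after scaling. Hspa4l averaged 59.5 ± 8.93 against 61.0 ± 3.63 TPM (SD, n = 2 each). Over the 14 HSP70 and HSP110 genes the median log2 difference was 0.04, with 9 above 0. That median became -0.018 when wild-type replicate 1 was omitted and 0.11 when replicate 2 was.

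The stress-inducible HSP70 genes varied more between replicates than between groups. Hspa1b (ENSMUSG00000090877; GRCm39 chromosome 17, 35175412 to 35178214, minus strand) stood at 33.6 and 47.9 TPM with wild-type lamin A and at 55.7 and 38.7 TPM with K97E. Hspa1a (ENSMUSG00000091971; GRCm39 chromosome 17, 35188166 to 35191132, minus strand) stood at 10.3 and 14.02 against 17.1 and 12.04 TPM. In both genes wild-type replicate 1 was lowest and K97E replicate 1 highest, with the other libraries between them, so the groups overlapped. The log2 difference of Hspa1b was 0.15 (95% interval -0.40 to 0.70), and leaving out wild-type replicate 1 gave -0.10 and leaving out replicate 2 gave 0.40. For Hspa1a it was 0.19 (95% interval -0.32 to 0.71), and the same omissions gave -0.03 and 0.41. The pair code for nearly the same protein, and how StringTie divided reads between such close copies was not tested. Their sum was 43.9 and 61.9 TPM with wild-type lamin A and 72.8 and 50.7 TPM with K97E, and Hspa1b stood between 3.21 and 3.41 times the level of Hspa1a in the 4 libraries. Hspa8 exceeded Hspa1b by 20.2 to 32.5 times.

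The 15 genes taken as the heat-inducible core, textbook targets of heat shock factor 1, had a median log2 difference of 0.03. Of these 9 were above 0, 6 below and 0 called. Dnajb1, the J protein that partners inducible HSP70, stood at 28.8 and 31.6 TPM with wild-type lamin A and at 33.4 and 33.5 TPM with K97E. The values separate the groups as deposited but not after scaling, and the log2 difference was 0.09 (95% interval -0.15 to 0.33). The core did not move as a single set across libraries, but parts of it did. Hspa1a, Hspa1b, Hspb1 and Hspa4l lay below their means in wild-type replicate 1 and K97E replicate 2, and above them in the other libraries. Hspd1, Hspe1, Hsp90ab1 and Hspb8 had the opposite signs. The cause of these patterns was not tested. Wild-type replicate 1 was lowest of the 4 for Hspb1, Hspa1a, Hspa1b, Hspa4l, Hsph1 and Dnajb1, and highest for Hspe1, Dnaja1, Dnajb4, Hsp90ab1 and Hspa8.

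**Figure D2:**
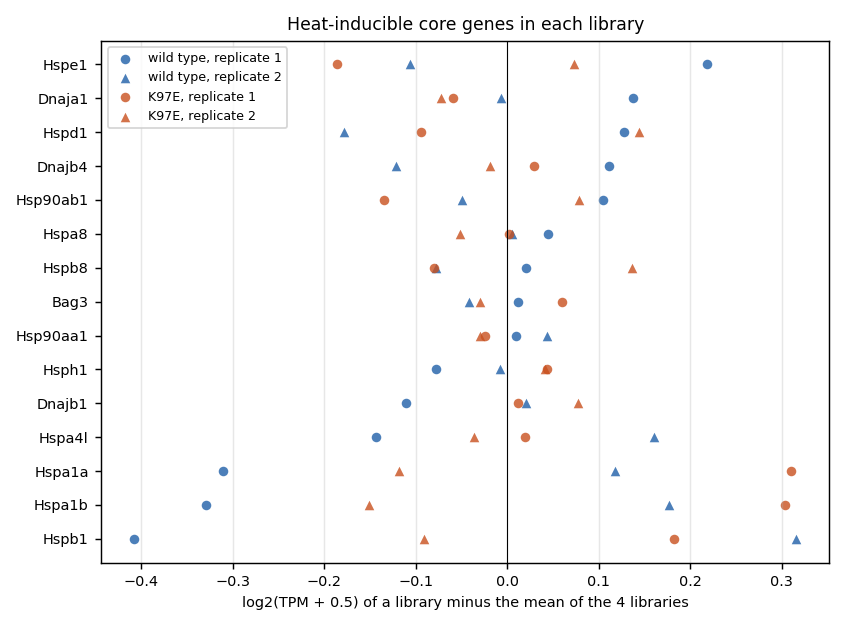
Deviation of each library from the mean of the 4 libraries, as log2(TPM + 0.5) after scaling, for the 15 heat-inducible core genes; blue is wild type, orange K97E, circles replicate 1 and triangles replicate 2. Hspb1 spans the widest range, from -0.41 in wild-type replicate 1 to 0.32 in wild-type replicate 2. On this scale the groups are apart for 4 of the 15 genes, against 33.1% of all tested genes. They are Hsph1 (K97E higher) and Dnaja1, Hspa8 and Hsp90aa1 (K97E lower). As deposited the groups overlap for Dnaja1, Hspa8 and Hsp90aa1, and no direction is read from Hspa8 and Hsp90aa1.

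HSP90 and the chaperonin were abundant in both groups. Hsp90ab1, the constitutive cytosolic HSP90, was the strongest of all members at 2415 and 2169.9 TPM with wild-type lamin A and 2178 and 2414 TPM with K97E. Its means of 2293 ± 174 TPM and 2296 ± 167 TPM (SD, n = 2 each) differed by far less than the replicates. Hsp90aa1, its stress-inducible relative, stood at 514 and 527 against 535 and 509.7 TPM, with a log2 difference of -0.05 (95% interval -0.30 to 0.19). Hspd1, or HSP60, stood at 368 and 298 against 336 and 379 TPM. Hspe1, its HSP10 lid, stood at 254 and 202 against 204 and 233 TPM. For the pair that shares the promoter shown above, the replicate gaps pointed the same way within each group, and both exceeded the group difference. The 10 members placed in mitochondria had a median log2 difference of 0.0035, with 5 above and 5 below 0.

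No small heat shock protein was called, and several varied widely between replicates. Hspb1 (ENSMUSG00000004951; GRCm39 chromosome 5, 135916773 to 135918417, plus strand), known as HSP25 or HSP27 and a guard of actin and desmin filaments, stood at 92.4 and 153 TPM with wild-type lamin A and at 148 and 117 TPM with K97E. Both K97E values lay between the wild-type ones. The log2 difference was 0.09 (95% interval -0.52 to 0.71), and leaving out wild-type replicate 1 or 2 gave -0.27 or 0.45. Hspb8, the partner of BAG3, stood at 112 and 104.5 against 111 and 123 TPM. Hspb6, a smooth and striated muscle member also called HSP20, stood at 91.7 and 73.5 against 86.4 and 59.6 TPM, and it shares exons with Lin37, Proser3 and Gm38670. In both groups replicate 1 of Hspb6 was the higher. Hspb2, which overlaps the small heat shock gene Cryab, stood at 32.9 and 47.0 against 47.6 and 45.4 TPM.

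The family's extreme was Hspb9, a testis-enriched member. It stood at 0.86 and 0.652 TPM with wild-type lamin A and at 1.24 and 1.18 TPM with K97E, the largest positive log2 difference of the tested members at 0.41 (95% interval -0.10 to 0.93; limma adjusted p = 0.965). The thinnest of these values came from 23 estimated reads. The 5 tested small heat shock genes had a median log2 difference of 0.09, which became -0.077 on omitting wild-type replicate 1 and 0.29 on omitting replicate 2. Hspb7, a heart and skeletal muscle member, stood at 0.132 to 0.333 TPM and Hspb3 at 0 to 0.122 TPM, so both stayed below the level tested. The 9 tested members with enrichment in muscle or a link to myopathy, Hspb1, Hspb2, Hspb6, Hspb8, Bag3, Dnajb2, Dnajb4, Dnajb5 and Dnajb6, had 7 values above 0 and a median of 0.04.

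No type A J protein, the type that carries the full domain set of bacterial DnaJ, was called. Dnaja1 stood at 197 and 178 TPM with wild-type lamin A and at 183 and 173 TPM with K97E. After scaling both K97E values of Dnaja1 lay below the wild-type ones, with a log2 difference of -0.13 (95% interval -0.37 to 0.11). Dnaja2 averaged 94.8 ± 9.52 against 90.8 ± 3.28 TPM (SD, n = 2 each). Mitochondrial Dnaja3 averaged 54.5 ± 1.86 against 55.5 ± 0.759 TPM (SD, n = 2 each). The median of the 4 genes was -0.07, and it ranged from -0.13 to -0.03 with a library left out.

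Among type B J proteins, Dnajb6 is of interest in muscle because its variants cause a limb-girdle muscular dystrophy and it suppresses aggregation. Dnajb6 (ENSMUSG00000029131; GRCm39 chromosome 5, 29940686 to 30023132, plus strand) stood at 101 and 107 TPM with wild-type lamin A and at 102 and 90.5 TPM with K97E. K97E replicate 2 was the lowest, and after scaling both K97E values lay below the wild-type ones. The log2 difference was -0.17 (95% interval -0.40 to 0.06; limma adjusted p = 0.965). Its 10-exon and 8-exon transcripts held 39.2% to 43.2% and 52.2% to 54.8% of its TPM in the 4 libraries, and for both shares the groups overlapped. In TPM as deposited the 8-exon transcript stood at 55.3 and 56.1 with wild-type lamin A and at 53.8 and 47.4 with K97E. Dnajb4 averaged 49.6 ± 5.71 against 51.9 ± 2.89 TPM (SD, n = 2 each). The 10 tested type B genes had a median of -0.03, with 5 on either side of 0. That median turned to 0.03 with TPM as deposited, 0.00044 with FPKM as deposited and 0.02 without K97E replicate 2.

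Members of the endoplasmic reticulum, where J proteins assist BiP, were spread on both sides of 0. Dnajb9, an inducible BiP cofactor also called ERdj4, stood at 31.1 and 26.1 TPM with wild-type lamin A and at 27.1 and 23.4 TPM with K97E. After scaling both K97E values lay below the wild-type ones and the log2 difference was -0.23 (95% interval -0.54 to 0.07; limma adjusted p = 0.965). Dnajb11, which binds BiP substrates in the lumen, stood at 159 and 154 against 156 and 146 TPM. Dnajb12, a membrane J protein, stood at 49.2 and 47.6 against 47.3 and 44.4 TPM. In contrast Dnajc3, the inhibitor of eIF2-alpha kinases known as p58IPK, stood at 51.6 and 54.3 against 60.2 and 52.9 TPM. Dnajc10, a disulfide reductase, stood at 106 and 115 against 127 and 113 TPM. Of the 13 members of this compartment 4 were above 0 and 9 below, with a median of -0.04, and 0 were called.

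Type C J proteins share only the J domain and serve many tasks. Dnajc8, a splicing-associated protein and the strongest of the family, stood at 234 and 173 TPM with wild-type lamin A and at 174 and 183 TPM with K97E. Dnajc2, the ribosome-bound zuotin homologue, stood at 52.7 and 31.3 against 34.2 and 35.7 TPM, and Dnajc21, a factor of ribosome assembly, at 49.6 and 37.9 against 34.3 and 41.6 TPM. In each of these genes wild-type replicate 1 stood highest and wild-type replicate 2 lay near the K97E libraries. The 5 ribosome, splicing and chromatin members all had differences below 0, with a median of -0.23. Their summed level was 403 and 311 TPM with wild-type lamin A and 314 and 322 TPM with K97E, with wild-type replicate 1 apart from the other 3 libraries. For Dnajc8 the log2 difference became -0.016 on omitting wild-type replicate 1 and -0.45 on omitting replicate 2.

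Dnajc27, a small GTPase with a J domain, stood at 4.36 and 4.37 TPM with wild-type lamin A and at 5.18 and 5.10 TPM with K97E, and its log2 difference was 0.16 (95% interval -0.16 to 0.48). Dnajc16 averaged 11.4 ± 0.444 against 12.98 ± 0.0616 TPM (SD, n = 2 each). Both genes were higher in each K97E library, without passing the test. Dnajc7, a cochaperone with tetratricopeptide repeats, stood at 143 and 120.0 against 119 and 133 TPM, and it shares exons with Cnp and Nkiras2. The vesicle proteins Dnajc5 and Dnajc13 stood at 50.2 ± 6.62 and 72.3 ± 6.03 TPM with wild-type lamin A, and at 55.9 ± 5.17 and 70.8 ± 4.42 TPM with K97E (SD, n = 2 each). With Dnajc27 these are the 3 tested vesicle and endosome members, with 2 above 0 and a median of 0.10. The 25 tested type C genes had a median log2 difference of -0.02, with 12 above 0, and that median turned to 0.036 with TPM as deposited, 0.0065 with FPKM as deposited, 0.034 without genes that share exons and 0.0079 without wild-type replicate 1.

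No regulator of the response was called. Hsf1, the master regulator, stood at 85.9 and 83.8 TPM with wild-type lamin A and at 98.0 and 87.9 TPM with K97E. All K97E values of Hsf1 were higher, by a log2 difference of 0.07 (95% interval -0.14 to 0.29). Hsf2, its developmental relative, stood at 25.1 and 26.8 against 25.9 and 22.6 TPM, a log2 difference of -0.16 (95% interval -0.41 to 0.09). Bag3, the exchange factor of selective autophagy in muscle and itself a cardiomyopathy gene, stood at 84.8 and 81.7 against 93.4 and 83.9 TPM. Its log2 difference was 0.03 (95% interval -0.19 to 0.25).

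The member with the smallest unadjusted p carries the family name without being a small heat shock protein. Hspb11 (ENSMUSG00000063172; GRCm39 chromosome 4, 107110790 to 107137135, plus strand) encodes IFT25, a subunit of the intraflagellar transport complex of cilia. It stood at 42.3 and 35.2 TPM with wild-type lamin A and at 33.5 and 31.6 TPM with K97E. Wild-type replicate 1 lay apart from the other 3 libraries, and the groups did not overlap. The log2 difference was -0.30 (95% interval -0.59 to -0.01), and limma gave an adjusted p of 0.965. Omitting wild-type replicate 1 gave -0.17, and omitting replicate 2 gave -0.43. Hspbp1, an HSP70 nucleotide-exchange factor, stood at 24.9 and 25.2 against 28.1 and 31.8 TPM, with a log2 difference of 0.19 (95% interval -0.09 to 0.47).

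**Figure D3:**
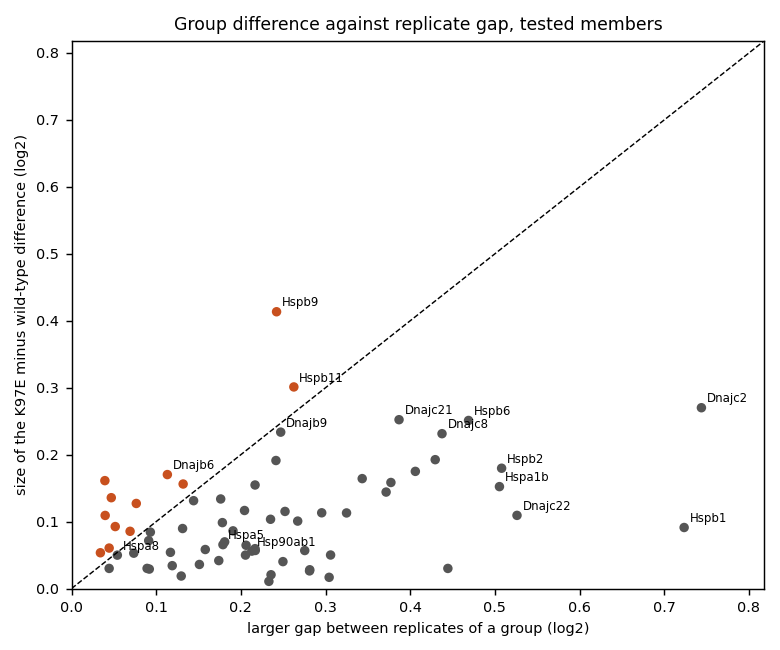
Size of the K97E minus wild-type difference against the larger gap between replicates of a group, both log2, with 1 point per tested member. Orange points above the dashed line of equality are the 12 members whose difference exceeds both gaps, and Hspb9 and Hspb11 are the highest of them.

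The spread between replicates was of the same order as the differences. The replicates of a group lay a median of 0.16 apart on the log2 scale with wild-type lamin A and 0.10 with K97E. The median size of the group difference was 0.09 for members and 0.10 for all tested genes. For 12 members, or Hspb9, Hspb11, Dnajb6, Dnajc27, Hsf2, Dnajb12, Dnajc16, Dnajb11, Dnajb7, Hsph1, Dnajc14 and Hsp90aa1, the difference exceeded the gap within each group, against 19.8% of all tested genes. The largest wild-type gaps were those of Dnajc2 and Hspb1, at 0.74 and 0.72. Wild-type replicate 1 was the highest library for 28 of the 68 members, or 41.2%, against 33.0% of all tested genes.

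The total level of the 76 members lay within the same range in both groups. Summed TPM was 9259 and 8555 with wild-type lamin A and 8920.3 and 8966 with K97E, which made up 0.855% to 0.926% of all TPM in a library. The 5 strongest genes, Hsp90ab1, Hspa8, Hspa5, Hspa9 and Hsp90aa1, gave 60.0% to 60.9% of that sum. By family the sums were 2809 ± 162 and 2830.4 ± 77.0 TPM for HSP70, 2813 ± 165 and 2818 ± 149 TPM for HSP90, and 354 ± 34.6 and 371 ± 33.9 TPM for small heat shock proteins (wild type and K97E, SD, n = 2 each). For DNAJA, DNAJB and DNAJC the sums were 347 ± 23.9, 457 ± 3.79 and 1038 ± 88.6 TPM with wild-type lamin A, and 335 ± 3.54, 446 ± 23.8 and 1024 ± 6.48 TPM with K97E (SD, n = 2 each). For every family named here the means differed by less than the larger of its SDs.

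**Figure D4:**
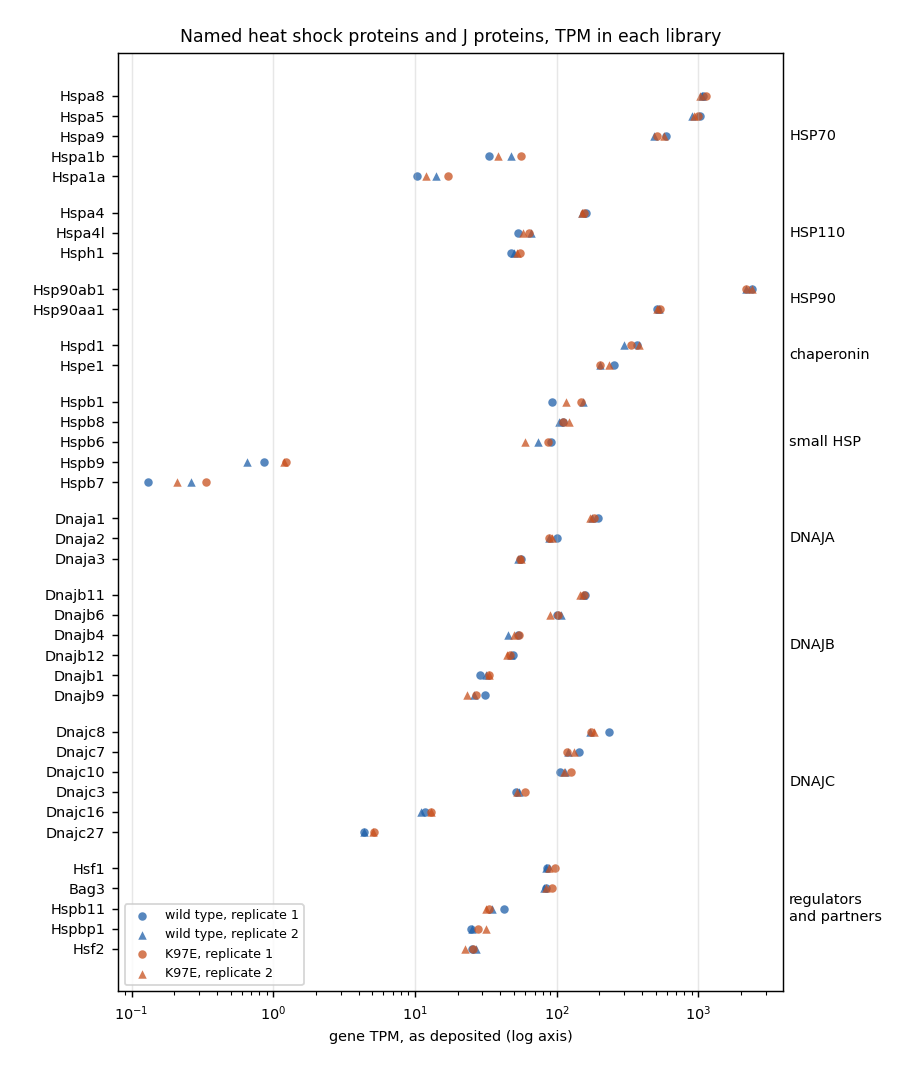
Gene TPM as deposited, on a log axis, of the 37 named members in each of the 4 libraries, grouped by family; blue is wild type, orange K97E, circles replicate 1 and triangles replicate 2. Levels span from 0.132 TPM for Hspb7 to 2415 TPM for Hsp90ab1, and the 4 points of most members lie close together.

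Members at the bottom of the range were mostly germ-cell genes. Of 10 members known from germ cells 5 were tested, with 4 above 0, 1 below and a median of 0.09. Dnajb8, Dnajb13 and Dnajc5g were listed at 0 in every library. Dnajb3 stood at 0.045 to 0.169 TPM, Dnajc5b at 0.0565 to 0.118 TPM, and Dnajc6, the neuronal clathrin-uncoating auxilin, at 0 to 0.0247 TPM. With Hspb3 and Hspb7 these are the 8 members not tested.

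Genes of the chaperone network outside the name rule were not called either. Of 53 such genes in the files, among them the cytosolic chaperonin subunits, prefoldins, HSP90 cochaperones and other BAG proteins, 51 were tested, 25 lay above 0 and 26 below, and 0 were called by limma, with 0 at an unadjusted p under 0.05. Their median log2 difference was -0.0035. Cdc37, which brings kinases to HSP90, stood at 51.8 and 58.8 TPM with wild-type lamin A and at 49.8 and 47.1 TPM with K97E, a log2 difference of -0.24 (95% interval -0.49 to 0.0024). Hscb, a J protein of iron-sulphur cluster assembly, stood at 14.8 and 15.7 against 18.6 and 18.2 TPM, a difference of 0.21. Both genes had groups that did not overlap. Of the 51 tested genes 9 were higher and 12 lower with K97E without overlap, these included, against 33.1% of all tested genes. Fkbp5, a cochaperone of steroid receptors, differed by 0.20 and the prefoldin subunit Pfdn2 by -0.18, neither past the test.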

How the data were processed

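RNA-seq of 4 libraries was used as deposited. Per the file headers, the authors ran StringTie 2.1.7 per library on Ensembl release 104 transcripts of GRCm39, restricted to annotated transcripts and with no strand option, and the files give TPM, FPKM and coverage but no read counts. The submitters' processing notes also name HISAT2, SAMtools, FastQC and DESeq2, whose roles are not given in the sources used here; DESeq2 was not used here. Where transcripts overlap, StringTie divides the reads by estimate; 23 of the tested members have exons that overlap another measured gene.

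TPM was summed per gene, divided by median-of-ratios factors and taken as log2 after adding 0.5, for genes with a mean of at least 0.5 TPM. limma 3.58.1 in R 4.3.3 compared the groups across all genes (trended eBayes, 5.54 total degrees of freedom, two-sided, Benjamini-Hochberg, threshold 0.05). With 2 libraries a group, an exact permutation test cannot go below p = 0.333. Means ± SD are of deposited TPM. Tested on simulated data of 16304 genes, the fit found 63 of 100 genes altered by 1 on the log2 scale and 98 of 100 altered by 2, and it wrongly called 10 of 16104 others. The simulated noise was independent between libraries, with variances drawn from limma's own fitted prior. Weakly expressed genes were not among those altered. All altered genes were simulated together, whereas the fit of the data called 1 gene, and adjusted p-values depend on how many genes change. The shares found therefore hold for that setting only. They do not carry over to the members, least of all to weakly expressed ones such as Hspb9. Estimated reads are coverage times length over 100 bases and carry no counting interval.

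Members named were those with a fixed role, the 3 strongest of each family and the 4 with the smallest p in each direction; Dnajc2, Dnajc21, Dnajc5, Dnajc13, the other HSP70 genes, Hspb2, Hspb3 and the genes at the bottom of the range were added after their values were seen. From the network list the 2 with the smallest p in each direction were named. The members and lists were chosen with earlier results of these data known. Promoters came from RefSeq on GRCm38.p6, matched by symbol, and their coordinates were not joined to those of the files. Protein sequences were not analysed here. Python 3.11.15, pandas 2.3.3 and matplotlib 3.10.9 were used. Alternatives were other pseudocounts, filters, scalings and variance models, FPKM as deposited, genes without overlapping exons, a replicate block and each library left out.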

Additional observations from a re-analysis of the deposited data

How the results depend on the processing

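No member was called by limma under the 11 alternatives that keep all 4 libraries, where the lowest adjusted p of a named member was 0.561. The 4 that leave out a library also called 0, but there 1 group has a single library, which is assumed to vary like the other group, so these say little about stability. The number of members at an unadjusted p under 0.05 was 1 in the fit reported, 8 without wild-type replicate 2 and at most 2 otherwise. The lowest adjusted p of a named member with a library left out was 0.28, without wild-type replicate 2. Over all genes the count of calls was 0 with no filter, 0 without genes that share exons, 2 with TPM as deposited and 2 with eBayes without trend, and it ran from 0 to 18 with a library left out (18 without wild-type replicate 1, 6 without wild-type replicate 2). With the replicate number as a block 0 genes and 0 members were called. Deviations of same-numbered libraries from their group means correlated at -0.14 over 16304 genes, so a crossed block was added after seeing the data, and it called 30 genes and 0 members; the labels do not say that numbers pair libraries. The median of all genes moved to 0.05 with TPM as deposited, and the members' median moved to 0.071 with it, against 0.023; it was -0.019 at a mean TPM of at least 5 and ran from -0.018 to -0.0029 with a library left out. With TPM as deposited the medians were 0.10 for HSP70 and HSP110, 0.15 for small heat shock proteins and 0.026 for DNAJB, and 45 of 68 members lay above 0. Quantile normalization gave 0.13 for small heat shock proteins. DNAJB stood at 0.011 with no filter, 0.00044 with FPKM and 0.026 without genes that share exons. With a library left out the medians ran from -0.018 to 0.11 for HSP70 and HSP110, -0.077 to 0.29 for small heat shock proteins, -0.13 to -0.033 for DNAJA and -0.12 to 0.017 for DNAJB. The DNAJC median, -0.021, turned to 0.036 with TPM as deposited, 0.0065 with FPKM, 0.034 without genes that share exons and 0.0079 without wild-type replicate 1. Of 36 named members tested, 16 turned sign with a library left out and 6 under another alternative. The cause of these changes was not tested. With 2 libraries a group, wide intervals limit what can be said of Hspa1a, Hspa1b and Hspb1, and depth limits Hspb9.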

Other observations

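Values noticed after the data were seen are given here without a test. The ratio of Hspd1 to Hspe1, the chaperonin subunits on the shared promoter, was 1.45 and 1.47 with wild-type lamin A and 1.65 and 1.62 with K97E. These genes also overlap at their starts, so reads there can be credited to either. The ratio of Hsp90ab1 to Hsp90aa1 was 4.69 and 4.12 with wild-type lamin A and 4.07 and 4.74 with K97E, with no separation of groups.

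Transcript shares of 3 members are given next. Of the Dnajc7 TPM, transcript ENSMUST00000239499 held 29.8% in K97E replicate 1 and was listed at 0 in the other 3 libraries, while ENSMUST00000239418 held 6.75% in that library against 26.3% to 37.5% elsewhere. The shorter Hsp90aa1 transcript ENSMUST00000021698, of 2852 bases, held 18.9% and 9.28% of the gene's TPM with wild-type lamin A. With K97E it held 0.804% and 4.63%, both below the wild-type shares, and the replicates of each group also lay apart. How many of all transcripts separate the groups in this way was not counted, so no shift is read from it. The Dnajb12 transcript ENSMUST00000147914 held 39.2% in wild-type replicate 1 and 13.3% to 18.03% in the other 3 libraries.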
